A study of Homo sapiens with 6 samples.

Results

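The proteasome genes of K562 cells were examined here, that is, every gene of the deposited tables whose symbol is PSM followed by a letter from A to G and a number. The rule found 38 genes among 17066 distinct row names, and each of the 38 had 1 row in every table. They comprise 4 alpha and 6 beta subunits of the core particle, 6 ATPases and 14 non-ATPase (PSMD) proteins of the regulatory cap, 4 activators, 1 inhibitor and 3 PSMG assembly chaperones. The 14 PSMD genes include PSMD5, PSMD9 and PSMD10, which encode chaperones that bind the ATPases during assembly. The alpha subunits PSMA1, PSMA2, PSMA6 and PSMA8, the beta subunits PSMB5 and PSMB11, the chaperone PSMG2 and the inducible subunits PSMB8, PSMB9 and PSMB10 were not analysed here. Of the proteins that associate with the immunoproteasome, the values therefore cover the activators PSME1 and PSME2 and not its catalytic subunits.

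K562, an established line from a human leukemia, resembles erythroid precursors and, in its parent form, makes neither isoform of C/EBPα. Stable lines made with PiggyBac vectors under a Tet-inducible promoter were compared: an empty vector (CTR), the wild-type factor (CEBPA) or the shorter isoform C/EBPα-p30 (P30), with 2 replicates each. By the western blot of the study, the CEBPA line made the full-length protein together with the shorter isoform. All 6 samples, the controls included, were given doxycycline, the inducer of the transgene, at 200 ng/ml for 48 h, and the sources used here do not say whether a line was a single clone. The values are FPKM, fragments normalized for transcript length and for sequencing depth, as 1 value per gene and group with the replicates pooled by the authors. The study gives its sequencing depth only as a range over samples, and the tables hold neither the depth of each sample nor a spread between replicates. Every comparison is therefore a description of pooled values, without error or test. Changes are differences of log2(FPKM + 1), kept only where either group of a pair exceeded 1 FPKM, a filter that all 38 proteasome genes passed in each comparison.

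The erythroid markers were present in CTR cells, with a summed level of 1786 FPKM over the 7 of 10 that had a row, against 707.6 in CEBPA and 1285 in P30. Granulocytic markers, 5 of 7 with a row, summed to 51.9 FPKM in CTR, against 10197 in CEBPA and 85.3 in P30. S100A8, S100A9 and LYZ made up most of the CEBPA sum, whereas ITGAM stood at 2.59, 2.43 and 14.3 FPKM in CTR, CEBPA and P30. Lymphoid markers (3 of 5) summed to 4.34 to 13.2 FPKM and stromal markers (3 of 4) to 3.18 to 4.63, and no marker with a row was at 0. CEBPA cells thus differed from both other lines in their lineage genes at the time of sampling. The study also reports that doxycycline halted the growth of CEBPA cells and made them differentiate as granulocytes. The growth of CTR and P30 cells was unaffected. The part of these differences in the proteasome values was not tested. In these bulk samples, fewer cells of a type and less RNA per cell cannot be told apart.

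The proteasome degrades proteins tagged with ubiquitin, and every growing cell relies on it. Its core is a stack of alpha and beta rings, with the proteolytic sites on beta subunits inside the chamber. The regulatory cap has a base, in which a ring of ATPases unfolds the substrate and opens the core, and a lid, which removes the ubiquitin chain. Activators of the PSME family can take the place of the cap, PSMF1 inhibits the core in the test tube, and the PSMG chaperones guide assembly of the alpha ring. Interferon replaces the catalytic beta subunits by inducible ones and raises PSME1 and PSME2, which changes the peptides available for class I antigen presentation. When degradation falls short, the transcription factor NFE2L1 raises proteasome genes as a set, through antioxidant response elements in their promoters.

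Since many members lie under this shared control, their promoters were read for matches to the letters of such elements. RefSeq promoters in GRCh38.p14, from 250 bases before to 50 bases after the first listed start, were at hand for 32 of the 38 members. The letters TGACNNNGC, an antioxidant response type of element, occurred on either strand in 11 of the 32 (34.4%), against 13.6% of 27305 promoters. CCAAT occurred in 15 of 32 (46.9%), against 35.7%, and TTGCNNAA, which reads as a C/EBP type of element, in 2 of 32 (6.25%), against 10.6%. The 2 were the promoters of PSMB4 and PSMD5. Promoters of 3 members are shown because they mark the extremes in CEBPA vs CTR among members with a promoter and the part linked to interferon: PSMC5 had the lowest change, PSMD12 the highest, and PSME1 encodes an interferon-inducible activator. Each is printed 5′ to 3′ on the strand of its gene, with every match to these letters in capitals, and matches to different motifs were allowed to overlap.
PSMC5, chr17:63827181-63827480, plus strand: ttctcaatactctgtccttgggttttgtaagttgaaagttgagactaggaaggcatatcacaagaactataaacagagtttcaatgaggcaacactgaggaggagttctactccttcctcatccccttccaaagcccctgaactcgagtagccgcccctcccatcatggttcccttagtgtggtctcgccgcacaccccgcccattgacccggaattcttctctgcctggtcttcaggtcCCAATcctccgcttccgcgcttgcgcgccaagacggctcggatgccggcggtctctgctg
PSMD12, chr17:67366528-67366827, minus strand: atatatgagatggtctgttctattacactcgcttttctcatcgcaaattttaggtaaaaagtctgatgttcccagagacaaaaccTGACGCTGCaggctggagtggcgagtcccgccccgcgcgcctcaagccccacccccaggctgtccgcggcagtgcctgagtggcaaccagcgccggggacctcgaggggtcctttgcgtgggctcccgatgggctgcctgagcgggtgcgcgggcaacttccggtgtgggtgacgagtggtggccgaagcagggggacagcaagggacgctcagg
PSME1, chr14:24135944-24136243, plus strand: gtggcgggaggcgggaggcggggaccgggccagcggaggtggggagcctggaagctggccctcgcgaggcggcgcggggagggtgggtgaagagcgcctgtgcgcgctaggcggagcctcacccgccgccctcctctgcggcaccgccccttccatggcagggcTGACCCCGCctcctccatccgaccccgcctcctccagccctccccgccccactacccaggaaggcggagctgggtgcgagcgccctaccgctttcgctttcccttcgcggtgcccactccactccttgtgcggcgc
The PSMC5 promoter holds a CCAAT match and neither of the other motifs. The PSMD12 and PSME1 promoters hold 1 match to TGACNNNGC each, and their changes in CEBPA vs CTR, given further on, had opposite signs. These matches are descriptions of letters and do not show that a factor binds.

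All 38 genes were abundant. Their FPKM in CTR cells ran from 43.0 (PSMG4) to 521 (PSMB1), with a median of 101, where the genes over 1 FPKM had a median of 14.8. The lowest member lay above 78.2% of the genes over 1 FPKM in CTR, above 72.0% in CEBPA and above 72.9% in P30. Core subunits stood highest, with a median of 222 FPKM for the alpha and 239 for the beta subunits in CTR, whereas the ATPases had 97.7, the PSMD genes 82.7 and the activators 79.5. Subunits that occur once in every ring or cap were far from equal in RNA. In CTR the alpha subunits spanned 1.51-fold, the ATPases 2.18-fold, the beta subunits 4.99-fold and the PSMD genes, with or without the chaperones among them, 5.77-fold.

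**Figure D1:**
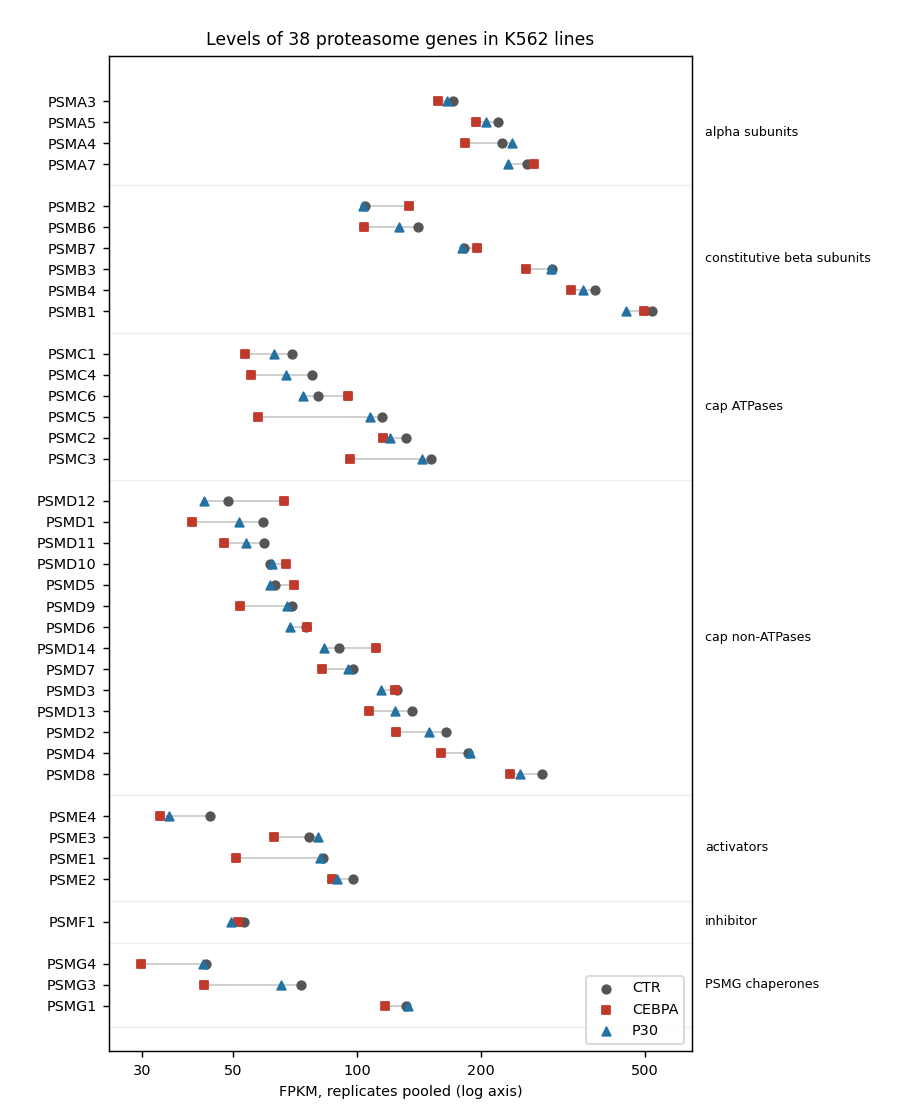
FPKM on a log axis of each proteasome gene in CTR (circles), CEBPA (squares) and P30 (triangles) cells, 1 pooled value per group and gene, sorted by the CTR level within each class. CEBPA has the lowest symbol for 26 of the 38 genes and the highest for 9, and these shares were not counted over all genes.

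CEBPA vs CTR compares cells given wild-type C/EBPα with cells that lack it, and these lines also differed in growth, as described above. Most of the 38 were modestly lower: 29 were lower in CEBPA, a share of 76.3% against 50.5% of all 13673 genes compared, and 9 were higher, where 49.5% of all genes were. Genes of high level were more often lower in general, with 61.7% lower among the 4273 genes over 20 FPKM in both groups. The median change of the members was -0.21, where it was -0.0087 for all genes and -0.14 for genes over 20 FPKM. The members also lay closer together than other genes. Only 4 of 38 (10.5%) differed by at least 1.5-fold, all of them lower, against 42.5% of all genes in either direction and 18.6% downwards, and 29.5% in either direction of those over 20 FPKM. No member reached 2-fold on this scale, which 21% of all genes did, although PSMC5 stood at 0.499 of its CTR level by FPKM itself. The spread, as a scaled median absolute deviation, was 0.28 for the members, 0.73 for all genes and 0.52 for genes over 20 FPKM.

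Summed over the 38 genes, the level was 5243, 4633 and 4916 FPKM in CTR, CEBPA and P30, so that CEBPA had 0.884 and P30 0.938 of the CTR sum. The group lowest in level was CEBPA for 26 members, P30 for 11 and CTR for PSMD10 alone, with 61.6 FPKM in CTR, against 67.1 in CEBPA and 62.3 in P30. CTR was the highest group for 25 members. The share of all genes with each group lowest or highest was not counted. Among genes over 20 FPKM in both groups of a pair, 61.7% were lower in CEBPA than in CTR and 63.3% lower than in P30.

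**Figure D2:**
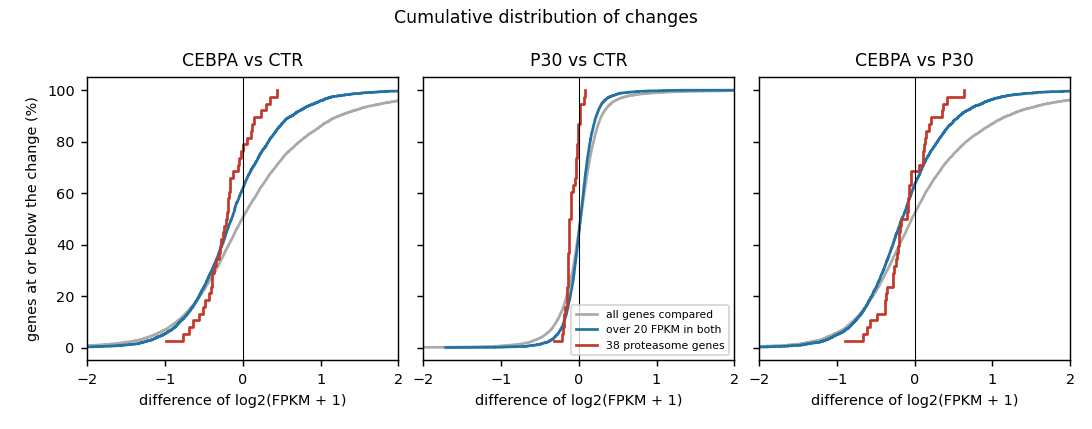
Cumulative share of genes, in percent, by difference of log2(FPKM + 1), for all genes compared (grey), genes with over 20 FPKM in both groups (blue) and the 38 proteasome genes (red), with the axis limited to changes between -2 and 2. The red curve is steeper than the others in every pair and reaches 86.8% at a change of 0 in P30 vs CTR.

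In the core particle, 3 of the 4 alpha subunits were lower in CEBPA than in CTR, with a median change of -0.15. Of all genes over 20 FPKM in both groups, 61.7% were lower. The alpha rings form the gate through which substrates enter. PSMA4 had 225, 183 and 238 FPKM in CTR, CEBPA and P30, which gave the lowest alpha change in CEBPA vs CTR (-0.29) and the only positive one in P30 vs CTR (0.083). PSMA7 showed the reverse order, with 259 FPKM in CTR, against 268 in CEBPA and 233 in P30. Its changes were 0.054 and -0.15. PSMA3 and PSMA5 had changes of -0.12 and -0.18 in CEBPA vs CTR.

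Of the 6 constitutive beta subunits, 4 were lower (66.7%) and 2 higher in CEBPA vs CTR, with a median of -0.13. This share was near the 61.7% lower among all genes over 20 FPKM in both groups. PSMB6 and PSMB7 carry the caspase-like and the trypsin-like site of the standard proteasome. PSMB6 had 141, 104 and 127 FPKM in CTR, CEBPA and P30, a change of -0.43 in CEBPA vs CTR. PSMB7 had 182, 196 and 180 FPKM, a change of 0.11. These catalytic subunits lay on different sides of 0, but the change of PSMB7 was smaller than 0.20, the spread of all genes in P30 vs CTR. With replicates pooled, its sign cannot be set against replicate error. The chymotrypsin-like PSMB5 was not analysed here. PSMB2, a structural neighbour in the ring, was the highest of the class by change, with 105 FPKM in CTR, against 133 in CEBPA and 104 in P30 (0.35). PSMB1, the most abundant member in all groups, had 521, 498 and 451 FPKM, and PSMB3 and PSMB4 had changes of -0.20 and -0.19.

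The cap ATPases had the lowest median of the ring classes, -0.43, with 5 of 6 lower (83.3%), against 61.7% of genes over 20 FPKM in both groups. This rank did not hold when changes were read against genes of like GC content, as given further on. PSMC5 was lowest of all 38 genes by change: it had 115, 57.4 and 107 FPKM in CTR, CEBPA and P30, with a change of -0.99 in CEBPA vs CTR. PSMC3 had 151 FPKM in CTR, against 96.4 in CEBPA and 144 in P30, a change of -0.65. PSMC4, PSMC1 and PSMC2 followed with -0.49, -0.38 and -0.19. Only PSMC6 was higher in CEBPA, at 94.9 FPKM against 80.4 in CTR and 73.9 in P30, a change of 0.24. All 6 ATPases sit side by side in 1 ring. The FPKM of PSMC5 over that of PSMC6 was 1.43 in CTR, 1.45 in P30 and 0.605 in CEBPA. These are the ATPases with the lowest and the highest change, so that their ratio shows the widest shift of the class. PSMC1 over PSMC2 differed less, with 0.527 in CTR, 0.522 in P30 and 0.460 in CEBPA. PSMC5, at chromosome 17 from 61904512 to 61909386 of GRCh37 (plus strand), overlaps FTSJ3 on the other strand, which had 20.6 FPKM in CTR and 24.2 in CEBPA. The libraries were stranded, but the authors ran TopHat at its default parameters and no strand setting is given in the sources used here, so that reads of overlapping genes may have been assigned without regard to strand.

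Among the 14 PSMD genes of the cap, 9 were lower (64.3%) and 5 higher in CEBPA vs CTR, with a median of -0.23 and a range from -0.56 to 0.44. The share lower was near the 61.7% of all genes over 20 FPKM in both groups. The split of these genes into base, lid and base chaperones is textbook knowledge, but it was made here after their values were seen. The base consists of the 6 ATPases with the large scaffolds PSMD1 and PSMD2, and 7 of these 8 genes were lower, with a median of -0.44. PSMD1 had 59.0, 39.7 and 51.7 FPKM in CTR, CEBPA and P30, the lowest PSMD change (-0.56), and PSMD2 had 164, 125 and 149 FPKM (-0.39). For the lid the median was -0.13 and 5 of 8 genes were lower (62.5%), again near 61.7%. Its members went from -0.35 for PSMD13 to 0.44 for PSMD12, a scaffold of the lid with 48.7 FPKM in CTR, against 66.6 in CEBPA and 42.4 in P30. PSMD14, the enzyme that cuts the ubiquitin chain off the substrate, had 90.5, 111 and 83.1 FPKM in CTR, CEBPA and P30 (0.29). PSMD3 and PSMD6 were nearly level, with -0.018 and 0.0080, while PSMD7, PSMD8 and PSMD11 had -0.25, -0.25 and -0.31. Of the chaperones that bind the ATPases during assembly, PSMD5 and PSMD10 were higher (0.15 and 0.12) and PSMD9 lower (-0.41). PSMD4, a ubiquitin receptor, had a change of -0.22.

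**Figure D3:**
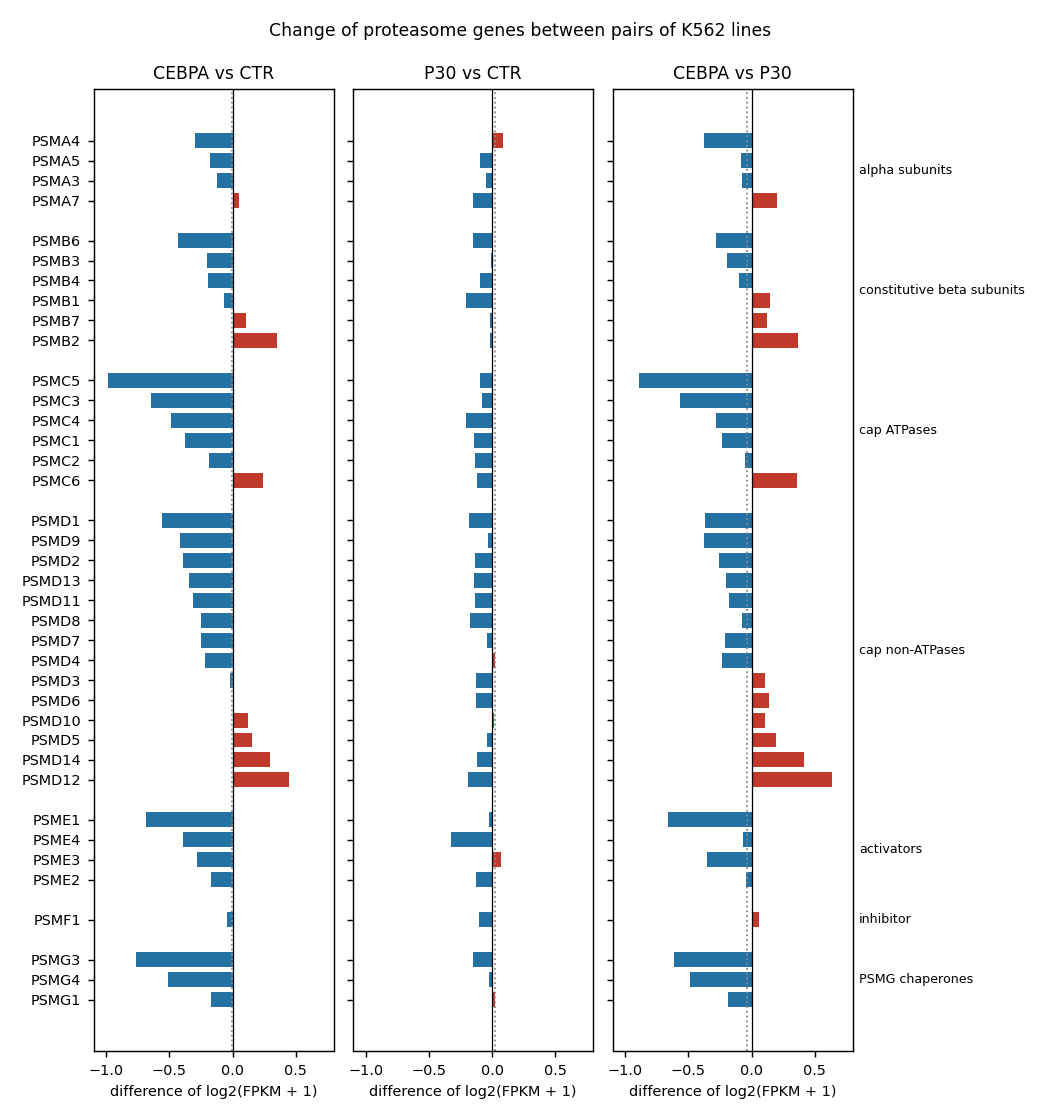
Difference of log2(FPKM + 1) for each proteasome gene in the 3 pairs of groups, as bars from 0 (red above, blue below), sorted within each class by CEBPA vs CTR. Dotted lines mark the median of all genes compared, and PSMC5 at -0.99 and PSMD12 at 0.44 bound the first panel.

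All 4 activators were lower in CEBPA than in CTR, as 61.7% of genes over 20 FPKM in both groups were, with a median of -0.34. PSME1 and PSME2 form a joint ring that is induced by interferon and favours the release of peptides. PSME1 had 82.6 FPKM in CTR, against 50.9 in CEBPA and 81.2 in P30, a change of -0.69 in CEBPA vs CTR. PSME2 had 97.9, 87.0 and 89.5 FPKM, a change of only -0.17. PSME1 was thus lower in CEBPA than in both other groups, and its FPKM over that of PSME2 was 0.843 in CTR, 0.906 in P30 and 0.585 in CEBPA. In GRCh37 both lie on chromosome 14, PSME1 on the plus strand from 24605372 to 24608176 and PSME2 on the minus strand from 24612571 to 24616779. PSME1 overlaps EMC9 on the other strand, which had 9.26 FPKM in CTR and 12.7 in CEBPA, and 6 pseudogenes in the annotation are named after PSME2, so that the FPKM of PSME2 is uncertain where reads are shared with a copy.

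PSME3, the nuclear activator, had 76.5, 62.8 and 80.5 FPKM in CTR, CEBPA and P30 (-0.28 in CEBPA vs CTR). PSME4, an activator known for the degradation of histones, had 43.9 FPKM in CTR, against 33.2 in CEBPA and 34.9 in P30. Its changes were -0.39 in CEBPA and -0.32 in P30, the lowest of all 38 members in P30 vs CTR. The inhibitor PSMF1 hardly differed, with 53.2, 51.5 and 49.5 FPKM in CTR, CEBPA and P30.

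The 3 PSMG chaperones were all lower in CEBPA vs CTR, as 61.7% of genes over 20 FPKM in both groups were, with a median of -0.51. PSMG3 and PSMG4, which work as a pair, had changes of -0.76 and -0.51. PSMG3 had 73.0, 42.5 and 65.5 FPKM in CTR, CEBPA and P30, and PSMG4 had 43.0, 29.8 and 42.2. In GRCh37, PSMG3 spans 1606968 to 1610641 of chromosome 7 (minus strand) and PSMG4 3231637 to 3303607 of chromosome 6 (plus strand). PSMG1, whose usual partner is PSMG2, stood at 132, 117 and 133 FPKM (-0.17). The antisense gene PSMG3-AS1, which overlaps PSMG3 on chromosome 7, had the opposite order, with 2.79 FPKM in CTR, against 6.47 in CEBPA and 3.28 in P30. PSMD5-AS1 was lower in CEBPA, at 54.0 FPKM against 69.7 in CTR, beside the slightly higher PSMD5, and PSMD6-AS2 was below 1 FPKM in every group. In all, 19 of the 38 members overlap an annotated gene on the other strand and 6 one on the same strand, and 14 have pseudogenes named after them, with the highest number, 13, for PSMC1. The values of these members are uncertain to the extent that reads were shared.

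P30 vs CTR compares the line given only the p30 isoform with the empty-vector line. An effect of p30 and other differences between these separately made lines cannot be told apart. The changes of the members were small, and nearly all pointed down. P30 was lower than CTR in 33 of the 38 genes (86.8%), against 44.9% of all 12395 genes compared and 43.8% of those over 20 FPKM in both groups. The median change was -0.11 for the members and 0.023 for all genes. No member differed by 1.5-fold, as 5.32% of all genes and 1.93% of those over 20 FPKM did. For 35 of 38 members the change was smaller than 0.20, the spread of all genes in this comparison. Most genes lie within such a spread of their median by construction, and the exact share was not counted. All 6 beta subunits, all 6 ATPases and all 8 lid genes were lower. The lowest beta change was that of PSMB1 (-0.21) and the lowest ATPase change that of PSMC4 (-0.21), which had 77.7 FPKM in CTR and 67.2 in P30. PSMB3 (-0.0064) and PSMC3 (-0.077) were nearest to 0 in these classes. Among the PSMD genes PSMD12 was lowest (-0.19), although it had the highest value of the class in CEBPA vs CTR. Higher values in P30 were found for 5 members, against 55.1% of all genes, namely PSMA4, PSME3, PSMG1, PSMD4 and PSMD10, of which PSMA4 was highest at 0.083. Changes of this size cannot be set against replicate error here, since the replicates are pooled.

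CEBPA vs P30 compares the CEBPA line, which makes the full-length and the shorter form, with the line given only the shorter. It shares the CEBPA and P30 values with the comparisons above. CEBPA was lower in 26 of the 38 genes (68.4%), against 52.1% of all 13569 genes and 63.3% of those over 20 FPKM, and higher in 12, against 47.9% of all genes. The median was -0.14 for the members, -0.036 for all genes and -0.16 for genes over 20 FPKM, so that the median of the members was not below that of other abundant genes in this pair. PSMC5 (-0.89), PSME1 (-0.66) and PSMG3 (-0.61) were at least 1.5-fold lower in CEBPA, as 17.8% of all genes were, and PSMD12 (0.64) was at least 1.5-fold higher, as 22.3% were. Together these were 4 of 38 members (10.5%), against 40.1% of all genes and 28.2% of those over 20 FPKM. By class, the PSMG chaperones had a median of -0.49, the ATPases -0.26, the activators -0.21, the alpha subunits -0.081 and the beta subunits 0.014. The lid, again as grouped after the values were seen, had 4 genes lower and 4 higher, and the base 7 lower and 1 higher. Of the extremes not yet given, PSMB6 was the lowest beta subunit (-0.28), PSMB2 the highest (0.36), PSMA4 the lowest alpha subunit (-0.38) and PSMA7 the highest (0.20). PSMC6 was the highest ATPase (0.36) and PSMD9 the lowest PSMD gene (-0.38).

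The order of the members in CEBPA vs CTR went along with base composition. The canonical transcript of each gene was taken from the GRCh37 annotation, and its GC content was 36.4% to 59.4% over the members. Across the 38 genes, which share libraries and are not replicates, Pearson's r of GC content and change was -0.54 and Spearman's rho -0.54. The genes with high changes had little GC, as PSMC6 with 36.4% and PSMD12 with 37.5%, and those with low changes more, as PSMC5 with 52.2%, PSMC3 with 56.0% and PSMG3 with 59.4%. Among the 19 members with the lower GC content 12 were lower in CEBPA, with a median of -0.12, and among the other 19 there were 17, with a median of -0.38. PSMD1, with 44.1% GC and a change of -0.56, and PSMD3, with 58.5% and -0.018, did not follow this order.

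The same trend ran through all abundant genes. Over 4008 genes above 20 FPKM in both groups with a GC value, rho was -0.48, and the median change went from 0.16 for the lowest of 5 equal groups by GC content to -0.49 for the highest. Each member's change was therefore also read against the median of all genes in its own of 20 bins of GC content, an alternative added after the trend had been seen. On this scale 31 of 38 members were lower (81.6%), with a median of -0.20, where genes in general are lower as often as higher by construction. Past 1.5-fold on this scale were 3 of the 38 members, against 36.6% of 11515 genes, so that members passed less often than genes in general. They were PSMC5 (-0.82), PSMD1 (-0.73) and PSME4 (-0.68), followed by PSMA4 (-0.58) and PSME1 (-0.51). PSMC3 moved to -0.34 and PSMG3 to -0.33, so that these and PSME1 were no longer past 1.5-fold, and PSMC6 turned from 0.24 to -0.085. The bins hold genes of every level. Against genes over 20 FPKM alone, the median of the members was lower in 4 of the 5 groups by GC content, as in the group next to the highest, with 14 members at -0.40 and genes at -0.32. In the highest group, 2 members had a median of -0.39 and the genes -0.49. Read against the 20 bins of all genes, the median in CEBPA vs CTR was -0.38 for the ATPases and -0.42 for the alpha subunits, which reversed the order of these classes. In P30 vs CTR the members followed GC content little, with rho of -0.11, and against their GC bins 35 of 38 were lower, with a median of -0.12. The study used sequencing runs of different read length, which replicate came from which is not given in the sources used here, and their part in the GC trend was not tested.

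**Figure D4:**
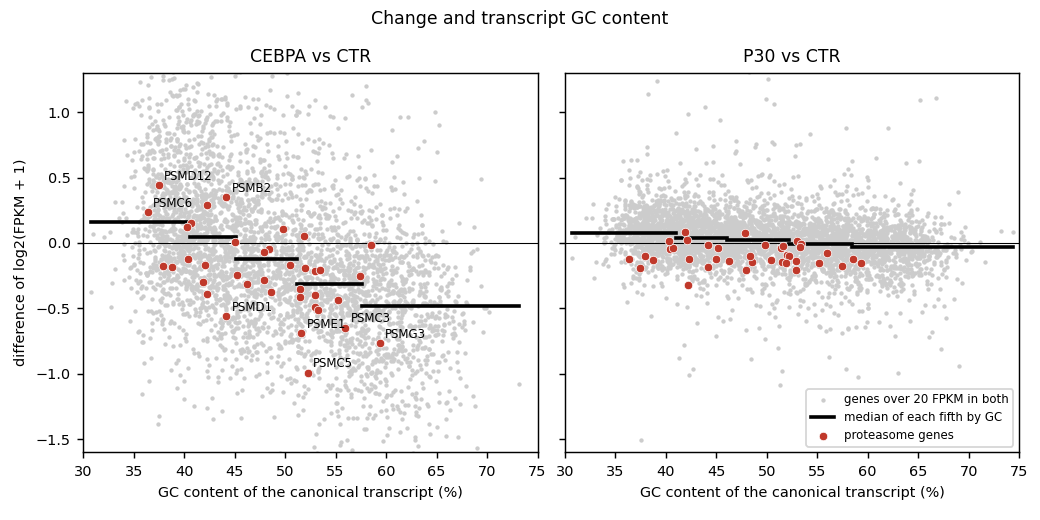
Difference of log2(FPKM + 1) against the GC content of the canonical transcript, in percent, for genes with over 20 FPKM in both groups (grey) and the proteasome genes (red), with black lines at the median of each of 5 equal groups of the grey genes by GC content. Genes beyond the limits of the axes are not shown, and the medians go down from 0.16 to -0.49 in CEBPA vs CTR and from 0.074 to -0.032 in P30 vs CTR.

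Genes that work with the proteasome were divided in direction, as were all genes compared, of which 50.5% were lower in CEBPA vs CTR. Of 13 listed symbols for associated proteins 11 had a row, and in CEBPA vs CTR 6 were higher and 5 lower, with a median of 0.059. AKIRIN2, which helps to import proteasomes into the nucleus, had 27.7, 74.8 and 32.1 FPKM in CTR, CEBPA and P30, a change of 1.40. KIAA0368, the gene of a scaffold that tethers proteasomes, had 42.2, 64.0 and 43.6 FPKM (0.59), and ZFAND2A had 12.1, 19.8 and 14.4 (0.66). The maturation factor POMP, at 122, 107 and 110 FPKM (-0.20), and the ubiquitin receptor ADRM1 (-0.18) lay near the median of the 38 members.

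For ubiquitin itself and its delivery to the proteasome, 13 genes had a row, 6 higher and 7 lower in CEBPA vs CTR, with a median of -0.16. The share lower was 53.8%, against 50.5% of all genes. The shuttle factor UBQLN2 had 12.3 FPKM in CTR, against 29.0 in CEBPA and 13.3 in P30 (1.17), while its relative UBQLN4 had 37.4, 25.3 and 34.6 (-0.55). The polyubiquitin gene UBB was nearly level (0.028). RPS27A, in which ubiquitin is fused to a ribosomal protein, was lower in CEBPA, with 1717, 1115 and 1754 FPKM (-0.62).

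Among regulators of proteasome genes, 5 of 6 had a row and 4 passed the filter in CEBPA vs CTR, 3 of them higher, where 49.5% of all genes were. NFE2L1 differed little, with 46.1, 41.9 and 47.9 FPKM in CTR, CEBPA and P30 (-0.13). NGLY1, which removes sugar chains from its product, had 40.0, 50.8 and 44.2 FPKM (0.34). DDI2, the protease that cleaves the NFE2L1 product, was counted with the delivery genes above and had 14.7, 33.1 and 14.4 FPKM (1.12). The interferon-linked regulators IRF1 and NLRC5 were higher in CEBPA: IRF1 had 6.55, 12.5 and 7.88 FPKM (0.84), and NLRC5, an activator of class I genes, 0.222, 31.3 and 0.724 (4.72). PSME1 and PSME2, the interferon-inducible members with a row, were lower in CEBPA than in CTR, as given above. Of the class I presentation list only 6 of 14 genes had a row. B2M had 989 FPKM in CTR, against 1263 in CEBPA and 1078 in P30 (0.35), the chaperone gene CANX 206, 384 and 294 (0.90) and the peptidase ERAP1 15.8, 23.9 and 20.4 (0.56), whereas CALR (-0.35) and PDIA3 (-0.24) were lower in CEBPA. In P30 vs CTR none of the listed genes past the filter differed by 1.5-fold, as 5.32% of all genes did, and the associated proteins had a median of 0.041.

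**Figure D5:**
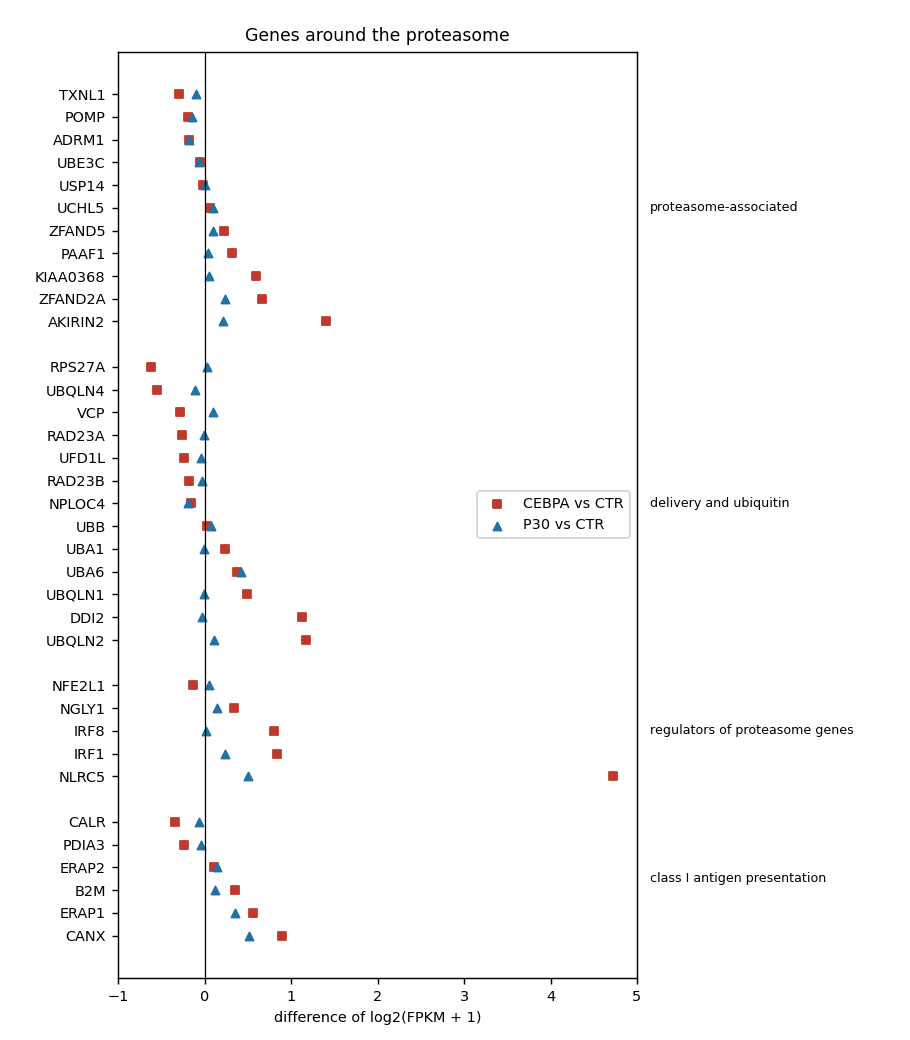
Difference of log2(FPKM + 1) for the listed genes around the proteasome in CEBPA vs CTR (squares) and P30 vs CTR (triangles), 1 pooled value per gene and pair, including those at or below 1 FPKM. NLRC5 lies farthest right at 4.72, and the triangles stay within 0.51 of 0.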

How the data were processed

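Paired-end libraries of CTR, CEBPA and P30 cells, 2 per group, had been made with a stranded mRNA kit, after ribosomal RNA depletion for at least 1 of the sequencing runs. The authors mapped the reads to hg19 by means of TopHat and quantified Gencode genes with Cufflinks and Cuffdiff, and the FPKM values they deposited stand in 3 tables, 1 for each pair of groups and 1 value per group. How rows were selected for the tables is not given in the sources used here. No column was left out. Replicates are pooled and depth per sample is not in the tables, so no interval or test was computed.

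The members and lists were chosen with earlier results of these data known. Differences of log2(FPKM + 1) were taken where either group exceeded 1 FPKM. As spread, the median absolute deviation was multiplied by 1.4826. GC content is that of the canonical transcript in a GRCh37 annotation later than that of the authors, matched by symbol or synonym for 84.2% of the genes in CEBPA vs CTR. The text names, within each class, the highest and lowest change in each pair, all PSME, PSMF and PSMG genes and genes of the lists, and the other members by their changes. Of the listed genes around the proteasome, 3 are not reported here. Computations were made in Python 3.11.15 with pandas 2.3.3, numpy 2.4.6 and scipy 1.17.1, and were tested on simulated data.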

Additional observations from a re-analysis of the deposited data

How the results depend on the processing

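No paired analysis was possible because both replicates of a group were merged into 1 FPKM before deposit, and for the same reason no replicate could be left out. The comparison of inducible and constitutive subunits was not run. Other settings were a filter at 5 FPKM or none, a pseudocount of 0.1 FPKM, genes listed in all 3 tables, medians in place of sums, centring on the median of all genes, and centring within 20 bins of transcript GC content, the last added after seeing the data. As working limits, a shift of 0.20 (the spread of P30 vs CTR) served for log2 values and a factor of 1.5 for counts. Of 921 recomputed values for 156 results, 885 stayed within them, 33 moved beyond them and 3 that exceeded 0.20 in size changed sign. Smaller values changed sign more often, so that 15 changes of single members did so in all, 12 of them within GC bins and 3 on centring on the median (PSMD4, PSMD10 and PSMG1 in P30 vs CTR). Centring on the median left 2 members higher in P30 vs CTR, in place of 5. Within GC bins there were 3 members higher in P30 vs CTR, where genes in general are higher as often as lower by construction. In CEBPA vs P30, 2 of 38 members were past 1.5-fold there (PSMC5 and PSMA4, without PSME1, PSMG3 and PSMD12), against 34.3% of 11461 genes. The median within GC bins was -0.42 for the alpha subunits and -0.14 for the base chaperones in CEBPA vs CTR, and -0.29 for the PSMG chaperones in CEBPA vs P30. The 3 larger values that changed sign within GC bins were those of PSMC6 (-0.085) and PSMD8 (0.12) in CEBPA vs CTR and of PSMB6 (0.015) in CEBPA vs P30, and the smaller ones were PSMD3, PSMD5, PSMD6 and PSMD10 in CEBPA vs CTR, PSMB4, PSMD8 and PSMD10 in CEBPA vs P30, and PSMD10 and PSMG1 in P30 vs CTR. The base chaperone median also changed sign there in CEBPA vs CTR and CEBPA vs P30. The causes were not tested.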
